A study of Drosophila melanogaster with 3 samples.

Results

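Distal intronic peaks in shorter genes are the sites of CoRest-eGFP that lay inside introns, well away from any annotated transcription start site, in protein-coding genes under 50 kb long. They were chosen by position alone. A peak of the authors' list thresholded on reproducibility was a member when its summit lay more than 2000 bp from every start site in the annotation, inside a protein-coding gene, outside the exons of all genes, and in no protein-coding gene of 50 kb or longer. Of 8721 thresholded peaks, 1019 (11.7%) were members. Among as many of the strongest peaks of each replicate, 947, 1001 and 1071 were distal intronic by the same rule, or 11.5% ± 0.713 (SD, n = 3).

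The samples were whole Drosophila melanogaster embryos, 0 to 24 h old and of both sexes, of a transgenic line that stably expresses CoRest with green fluorescent protein at its C-terminus. Chromatin sheared to 200 to 800 bp was precipitated with an antibody against the tag and sequenced (ChIP-seq). There were 3 biological replicates and no other group. All cell types of the embryo were mixed, so fewer cells with a bound site and less binding per cell cannot be told apart. The files analysed here hold peaks and no reads, so the depth behind each peak is unknown and the strength of a peak is given as its rank by the authors' signal, 1 being the strongest.

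CoRest is the scaffold of a corepressor complex that joins a histone demethylase, Su(var)3-3, to a histone deacetylase, HDAC1, and in flies it works with zinc finger repressors such as ttk and chn. Corepressors do not read DNA themselves and are brought to their sites by sequence-specific factors. Introns of developmental genes in the fly hold many enhancers, which are short stretches with clustered factor sites that act on promoters over a distance. Active enhancers are often open chromatin between flanking nucleosomes and are themselves transcribed outwards in both directions.

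Members had an AT-rich centre on average, and the sequences at 3 of the strongest show it in a marked form. Each line gives the summit with 100 bases of the plus strand on either side, taken from the RefSeq assembly of the dm6 genome. Capitals mark the letters CAGTG and their reverse complement CACTG, which lead the short sequences found more often at members.
Kdm2, chr3R:9057441-9057641: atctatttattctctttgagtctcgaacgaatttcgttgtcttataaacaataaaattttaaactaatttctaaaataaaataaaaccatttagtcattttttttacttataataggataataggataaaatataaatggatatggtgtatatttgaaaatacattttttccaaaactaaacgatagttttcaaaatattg
Gug, chr3L:8458230-8458430: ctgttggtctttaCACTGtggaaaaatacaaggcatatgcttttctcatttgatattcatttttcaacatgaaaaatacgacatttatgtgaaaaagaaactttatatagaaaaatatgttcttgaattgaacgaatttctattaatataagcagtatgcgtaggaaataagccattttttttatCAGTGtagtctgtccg
tara, chr3R:16236869-16237069: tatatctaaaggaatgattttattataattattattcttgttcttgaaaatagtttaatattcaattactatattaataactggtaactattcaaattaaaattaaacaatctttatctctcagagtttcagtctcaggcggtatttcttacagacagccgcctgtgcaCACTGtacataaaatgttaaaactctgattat
These 3 windows hold 20.4 to 28.9% GC, below the mean of 33.5% over all members. In Gug a CACTG lies to the left of the summit and a CAGTG to the right, each close to the end of the window. The next pair of sequences, with 145 bases on either side of the summit, is shown because both have CACTG in the left flank and CAGTG in the right flank as well, and in ImpL2 both lie outside the shorter window. They were picked by it as the next strongest such members found in all 3 replicates, leaving out an arm whose sequence is not printed.
ImpL2, chr3L:4230373-4230663: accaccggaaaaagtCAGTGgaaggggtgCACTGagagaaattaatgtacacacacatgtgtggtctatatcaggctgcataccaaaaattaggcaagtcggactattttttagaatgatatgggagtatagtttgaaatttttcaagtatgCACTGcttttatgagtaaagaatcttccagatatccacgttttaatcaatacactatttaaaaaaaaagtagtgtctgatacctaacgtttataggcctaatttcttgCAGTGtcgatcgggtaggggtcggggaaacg
CG34417, chrX:6549741-6550031: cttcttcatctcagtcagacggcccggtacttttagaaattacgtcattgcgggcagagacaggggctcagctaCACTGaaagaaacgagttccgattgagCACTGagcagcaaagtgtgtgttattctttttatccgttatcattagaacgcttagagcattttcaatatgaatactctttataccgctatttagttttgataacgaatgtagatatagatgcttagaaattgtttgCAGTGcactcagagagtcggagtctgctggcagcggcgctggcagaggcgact
The last sequence is shown for the site of the cell cycle factor E2F, which is the first block of capitals here as GCGCGAAA and was the 1 motif of a list of 36 that passed the threshold given below.
Kdm2, chr3R:9055822-9056022: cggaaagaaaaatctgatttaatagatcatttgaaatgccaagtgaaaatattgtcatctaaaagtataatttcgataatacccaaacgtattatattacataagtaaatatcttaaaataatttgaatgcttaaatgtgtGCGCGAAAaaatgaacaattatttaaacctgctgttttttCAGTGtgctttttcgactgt

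The members ranged over the whole list in strength. Their median rank was 4884 of 8721, with quartiles at 2646 and 6854, against a median of 3958 for the 4144 promoter peaks, those with a summit at most 500 bp away from the start of a protein-coding transcript. The difference in median rank was positive in every replicate, at 1135, 1126 and 696 ranks, and averaged 986 ± 251 ranks (SD, n = 3; exact sign-flip permutation test over the replicates, two-sided, p = 0.25). Without replicate 2 the difference was 620 ranks and without replicate 3 it was 568, from the fewer peaks found in both remaining replicates. The p of 0.25 is the smallest that 3 replicates allow, so no such test here could reach 0.05, and differences are read against the spread of the replicates. Distal peaks in longer genes had a median rank of 5035 and intergenic distal peaks one of 5104.

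Most members recurred. A peak was called found in a replicate when one of that replicate's 8721 strongest summits lay within 100 bp. Of the members, 631 (61.9%) were found in all 3 replicates, against 65.4% of all thresholded peaks and 69.3% of promoter peaks. A further 256 were found in 2 replicates, 122 in 1 and 10 in none. The share found was 82.6%, 78.3% and 87% in the replicates, against 91.2%, 83.1% and 85.6% for promoter peaks. The difference averaged -3.99 ± 5.06 percentage points (SD, n = 3) and turned round in replicate 3, so it was within the replicate spread. Recurrence went with strength in both classes, which was in part built in. The pooled rank comes from the same 3 replicates, and a peak counted as found only among the strongest 8721 of each. Of members ranked 1 to 2000, 96.7% were found in all 3 replicates, against 97.4% of promoter peaks. At ranks 2001 to 4000 the shares were 94.2% of members and 88.5% of promoter peaks, at 4001 to 6000 71.2% and 71.6%, and at 6001 to 8721 20.3% and 21.8%.

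The 12 strongest members found in all 3 replicates are given here with their host genes. The first was in the first intron of simj, which encodes a subunit of the Mi-2/NuRD remodelling complex, with pooled rank 49 and ranks 58, 66 and 46 in the replicates. Kdm2, a histone demethylase gene, held the fourth (chr3R:9057274-9057795, dm6) at rank 67 and replicate ranks 77, 58 and 61. Gug, which encodes the corepressor Atrophin, held the fifth (chr3L:8458102-8458563) at rank 79 and replicate ranks 67, 76 and 123. These 3 were among the strongest peaks of every replicate.

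The sixth lay in the first intron of tara, a trithorax group gene (chr3R:16236693-16237173), at rank 83 and replicate ranks 106, 57 and 91. The seventh was in the first intron of trx, the histone methyltransferase gene that gives the group its name (chr3R:14283622-14284105), at rank 88 and replicate ranks 127, 67 and 71. Between simj and Kdm2 stood peaks in CG12769 at rank 52 (chr2R:8060785-8061226) and at rank 65 in an intron shared by CG12912, CG46321 and Hr3, which encodes a nuclear receptor of the ecdysone response (chr2R:10219854-10220313). Raf, the kinase that acts below Ras (chrX:2297523-2297924), followed at 170, CG32486 (chr3L:3060616-3060996) at 178, a second tara peak (chr3R:16235861-16236485) at 189, PRAS40, an inhibitor of TOR complex 1 (chr2R:14484465-14484937), at 208 and a second simj peak (chr3L:10678511-10679027) at 225. Of the 12 peaks only those in Raf and CG32486 had over 40% GC at the summit, with 42.3 and 48.3%.

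The weakest members were at ranks 8715 and 8717. They lay in an intron of lz, a Runx factor gene, where the summit was found in 1 replicate, and in snu, an ABC transporter gene, found in 2. Just inside the distance limit were summits in Abd-B, a Hox gene, 2001 bp from a start site at rank 566, and in Agpat2, 2006 bp away at rank 6639. Just outside it were summits in CG5521 at 1998 bp and OtopLa at 1992 bp, with ranks 4274 and 7203. The longest host gene inside the limit was NetA, a netrin gene of 49917 bp, with 5 members at ranks 1091 to 4998. The nearest outside it was ab, a zinc finger gene of 50403 bp. The 2 distal peaks named for ab had ranks 2879 and 5723, and its total is not given here.

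Introns of the shorter genes held more CoRest summits per base than the other distal sequence. The sequence where a summit would count as a member, called eligible intron here, came to 18.2 Mb, or 13.6% of the genome arms analysed. It held 55.9 summits per Mb (replicates 55.2 ± 3.41), against 30.4 in the distal sequence of genes of 50 kb or longer (29.6 ± 2.34) and 28.2 in intergenic sequence (26.9 ± 2.15; all SD, n = 3). The ratios in the replicates were 1.87 ± 0.07 and 2.06 ± 0.225 (SD, n = 3). Both differences had the same sign in all 3 replicates, at 25.7 ± 1.69 and 28.3 ± 4.42 summits per Mb (SD, n = 3), each larger than the replicate spread (exact sign-flip permutation test, p = 0.25 for each).

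Much of the first difference went with distance. The density of members fell with distance, at 66.8 per Mb 2 to 3 kb from a start site, 62.9 at 3 to 5 kb, 54.7 at 5 to 10 kb, 41.6 at 10 to 20 kb and 19.2 beyond 20 kb. In the longer genes the same classes held 60.5, 49, 42.9, 30.9 and 9.73 per Mb, and in intergenic sequence 45.8, 46, 32.4, 26.9 and 4.52. Eligible intron was the densest in each of the 5 classes. When the classes of the other sequence were weighted to the distances of eligible intron, a step chosen after the data were seen, the ratio to longer genes fell to 1.25 (replicates 1.29 ± 0.0446) and that to intergenic sequence to 1.52 (replicates 1.57 ± 0.158; both SD, n = 3).

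**Figure D1:**
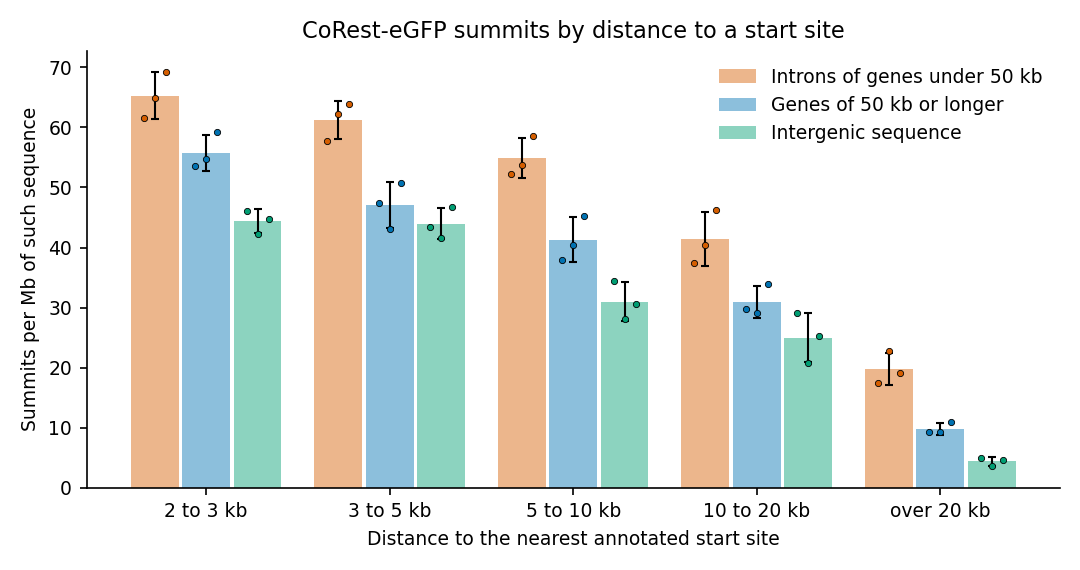
CoRest-eGFP summits per Mb (vertical axis) by distance to the nearest start site (horizontal axis) in introns of genes under 50 kb, in genes of 50 kb or longer outside exons, and in intergenic sequence. Bars are means over 3 replicates, error bars SD and points single replicates; the intron bars are the highest in all 5 classes and fall to 19.8 per Mb beyond 20 kb.

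The limit of 50 kb was not a step in the data. Density was 42.8 per Mb in hosts under 10 kb, 63 at 10 to 20 kb, 68 at 20 to 30 kb, 50.3 at 30 to 40 kb and 47.5 at 40 to 50 kb. Just past the limit, hosts of 50 to 75 kb held 46.8 per Mb, those of 75 to 100 kb 41.2, and those of 100 kb or longer 17.9. Replicate values for 40 to 50 kb and 50 to 75 kb overlapped, at 46.4 ± 4.53 and 44.4 ± 4.74 per Mb (SD, n = 3).

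Within the shorter genes the first intron was favoured. Introns were numbered along the longest transcript of each gene. First introns held 493 members in 6.16 Mb, or 80 per Mb, and later introns 525 in 12.1 Mb, or 43.6 per Mb; 1 member lay in neither. The replicate values were 72.7, 77.9 and 85.5 per Mb in first introns, against 41.3, 43.1 and 45 in later introns, and did not overlap. The difference of 35.6 ± 4.59 per Mb (SD, n = 3) exceeded the spread (exact sign-flip permutation test, p = 0.25). It was present at matched distances, with 90.5 against 48.6 per Mb at 2 to 3 kb, 90.3 against 46.1 at 3 to 5 kb, 70.7 against 47.2 at 5 to 10 kb and 56.9 against 36.9 at 10 to 20 kb.

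**Figure D2:**
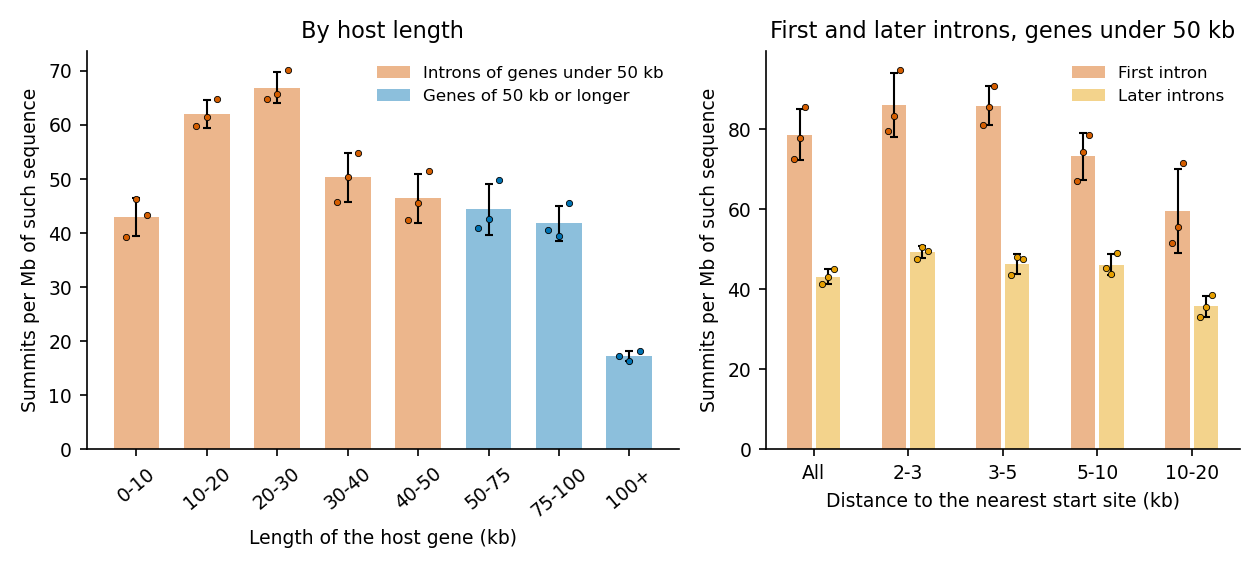
Summits per Mb by length of the host gene in kb (left) and in first and later introns of genes under 50 kb by distance to the nearest start site in kb (right). Bars are means over 3 replicates, error bars SD and points single replicates; there is no step at 50 kb, and first introns stand above later introns at each distance.

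Members sat deep inside introns. Only 15 (1.47%) were within 100 bp of an exon, although 9.84% of eligible bases were, and the median distance to the nearest exon was 2228 bp for members and 1723 bp for all eligible bases. The median distance to the nearest start site was 4720 bp, against 5305 bp for eligible bases. That start site belonged to the host gene for 718 members (70.5%), against 63.3% of eligible bases. Before the midpoint of the host lay 663 members (65.1%), against 52.5% of eligible bases. Another thresholded summit lay within 1 kb of 252 members (24.7%) and within 5 kb of 722 (70.9%). The shares were 25.2% and 70.5% for promoter peaks, 21.4% and 62% for distal peaks in longer genes, and 16.5% and 57.9% for intergenic ones.

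The X arm carried the most members per length of eligible intron, while 3R carried the most in number, with 267, against 233 on X. Eligible intron on X held 77.1 members per Mb (replicates 75.8 ± 5.01), against 53.1 on the 4 large autosome arms together, a ratio of 1.45 ± 0.0268 over the replicates (SD, n = 3). Single autosome arms held 60.6 (3L), 55.9 (3R), 48.4 (2R) and 45.9 (2L) per Mb. Weighting for distance left the ratio at 1.42 ± 0.025 (SD, n = 3). In longer genes the X to autosome ratio was 1.19 ± 0.0989 as it stood and 0.905 ± 0.0787 with the same weighting (SD, n = 3), so with distance weighted the longer genes showed no excess on X. The small chromosome 4 had 0 members in 0.394 Mb of eligible intron in the thresholded list, and 5.08, 2.54 and 0 summits per Mb in the replicates.

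The summits of members were AT-rich, and the dip was narrow. The mean GC content within 100 bp of the summit was 33.5% (replicates 33.9% ± 0.487, SD, n = 3), against 39.8% over all eligible intron. The difference was -5.91 ± 0.487 percentage points in the replicates (SD, n = 3; exact sign-flip permutation test, p = 0.25). It was -3.73 points in a window of 150 bp on each side. GC rose to 42.5% in windows centred 500 bp away, above the eligible average, and was 40.5% at 1000 bp. The strongest 10% of members had a mean of 32% and the weakest 10% one of 36.1%. Distal summits in longer genes (33.5%) and intergenic ones (33.4%) had nearly the same value, and promoter summits had 35.1%.

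**Figure D3:**
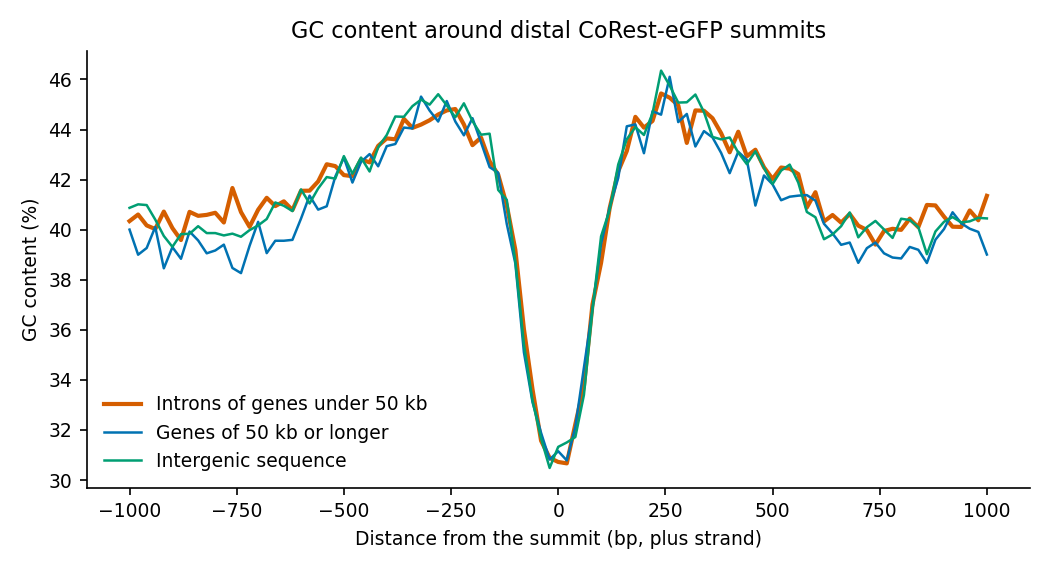
Mean GC content in percent (vertical axis) by distance from the summit in bp (horizontal axis) for distal summits of the thresholded list in introns of genes under 50 kb, in genes of 50 kb or longer and in intergenic sequence. All 3 curves dip to about the same level at the summit, 30.7% for introns of genes under 50 kb, and have shoulders above their surroundings on both sides.

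The commonest sites of known factors were hardly more frequent at members than in the rest of the eligible intron once GC was matched. Shares of windows with a motif on either strand were compared with windows tiled over eligible intron and weighted to the members' GC. A motif was called when its ratio was at least 1.5 in the thresholded list and in each replicate, and 1 of 36 was. That was E2F (GCGCGAAA), present at 8 members (0.785%), against 0.293% of weighted windows, with a ratio of 2.86 ± 0.0966 in the replicates (SD, n = 3). With so few members the ratio rests on single sites. It was 1.76 in the thresholded list without GC weighting and 0.903 with weighting in longer genes, and the site was present at 0.699% of all thresholded peaks and 0.917% of promoter peaks, close to the members' share.

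Close to the threshold were CA repeats (CACACACA), with a ratio of 1.51 in the thresholded list and 1.53 ± 0.0938 in the replicates, and the site of Zelda (CAGGTA), the activator of the early zygotic genome, with 1.44 and 1.47 ± 0.0837 (SD, n = 3). Without GC weighting the ratios in the thresholded list were 0.841 for CA repeats and 1.33 for Zelda. The excess of CA repeats was thus seen only with weighting, since 4.22% of members held them, against 5.02% of unweighted windows. The GATA sites (AGATAA or TGATAA), which belong to factors of gut, blood and epidermis, were present at 350 members (34.3%), against 30.4% of weighted windows, a ratio of 1.14 ± 0.0149 (SD, n = 3). GATA matches lay close to the summit, with 236 within 50 bp, against 124 at 200 to 250 bp, and the homeodomain core TAATTA did likewise, with 133 against 54. The GAGA site (GAGAG) went the other way, with 144 against 326 over the same distances. GC content changes over the same distances, and its part in these counts was not tested.

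The site of Tramtrack (GGTCCT), the product of ttk, was the least frequent of the list relative to the background. It was present at 5 members (0.491%), against 2.26% of weighted windows. The ratio was 0.217 in the thresholded list and 0.398 ± 0.14 in the replicates (SD, n = 3), and rests on few sites. In the thresholded list it was 0.423 in longer genes and 0.602 in intergenic sequence. The DREF site (TATCGATA) and the M1BP site (GGTCACACT), frequent at promoter peaks with 9.19 and 5.19%, were present at 5 (0.491%) and 2 (0.196%) members. Their weighted ratios in the thresholded list were 0.738 for DREF and 2.36 for M1BP, each resting on single sites.

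A search of all short sequences gave higher ratios than most of the list of factors. Of the 1185 sequences of 6 letters that were present, with their reverse complements, in at least 5% of member windows, the 8 with the highest GC-weighted ratios were CAGTGC (2.9), ACAGTG (2.72), ACACTG (2.62), GTGCAC (2.59), CACTGA (2.42), CAGTGG (2.35), ACTGAG (2.21) and CACTGG (2.13). The core CAGTG or its reverse complement CACTG is contained in 6 of the 8, and the other two overlap it in part. CAGTGC was present at 181 members (17.8%), against 6.11% of weighted windows, with a ratio of 2.56 ± 0.17 in the replicates (SD, n = 3). The core itself, singled out after these values were seen, was present within 100 bp of 472 members (46.3%), against 21.5% of weighted eligible windows, with a ratio of 2.02 ± 0.0955 (SD, n = 3). It was as frequent at other distal summits, with ratios of 2.19 ± 0.0521 in longer genes and 2.11 ± 0.0561 in intergenic sequence (SD, n = 3), so it is not particular to shorter genes.

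The core had a place and a direction. By raw count it was no more frequent at the summit itself than further out. There were 12 CACTG and 18 CAGTG from 0 to 19 bp to the right of the 1019 summits. Intervals of the same width from 240 to 399 bp to the right held 12 to 23 CACTG and 13 to 28 CAGTG. These counts were not matched for GC content, which was 30.7% at the summit, 45.4% at 240 bp and 43.1% at 400 bp. Enrichment at the summit relative to its GC was not tested. To the left, CACTG rose to 61 from -100 to -81 bp, against 38 CAGTG there. To the right, CAGTG rose to 72 from 80 to 99 bp, against 33 CACTG. Read 5′ to 3′, CAGTG thus pointed away from the summit more often than towards it on both sides. Gug, ImpL2 and CG34417 each hold the outward arrangement, but the left flank of ImpL2 also holds a CAGTG that points towards the summit.

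In the flanks of 60 to 140 bp on either side, limits set after the profile was seen, 410 matches pointed away from the summit and 259 towards it, a ratio of 1.58 (replicates 1.45, 1.49 and 1.5). Per 100 members that was 37.3 ± 1.91 matches away and 25.2 ± 1.42 towards (SD, n = 3), a difference of 12.1 ± 0.767 that exceeded the spread (exact sign-flip permutation test, p = 0.25). The replicates share most of these sites, so their spread does not measure how far other sites would differ. Of the 1019 members, 62 (6.08%) had the outward pair, CACTG in the left flank with CAGTG in the right, and 32 (3.14%) had the inward pair. The outward pair was present in 18 of the 254 strongest members and in 13 of the 255 weakest. Of the 62 members with it, 43 were found in all 3 replicates, against 631 of all 1019 members (61.9%). The pair was not particular to members, with 5.64% of distal peaks in longer genes, 9.59% of intergenic ones and 1.57% of promoter peaks.

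In the same flanks of 60 to 140 bp the direction was shared by the other distal summits. It was reversed at promoter peaks, with 936 matches away and 1094 towards. The ratio of matches away to matches towards was 1.32 ± 0.0905 in longer genes, 2.21 ± 0.146 in intergenic sequence and 0.851 ± 0.0118 at promoter peaks (SD, n = 3). Members therefore stood between longer genes and intergenic sequence, with 1.48 ± 0.0288 (SD, n = 3). At 240 to 320 bp members still had more matches away than towards, 198 and 150, or 19.4 and 14.7 per 100 members. So did intergenic sequence, with 129 and 104, and promoter peaks, with 833 and 654, while longer genes had 95 and 111. An excess of outward matches at members was thus not confined to the flanks of 60 to 140 bp. The strand of the host gene made little difference, since among 988 members with 1 host 49.2% of the outward matches were on the host's strand.

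**Figure D4:**
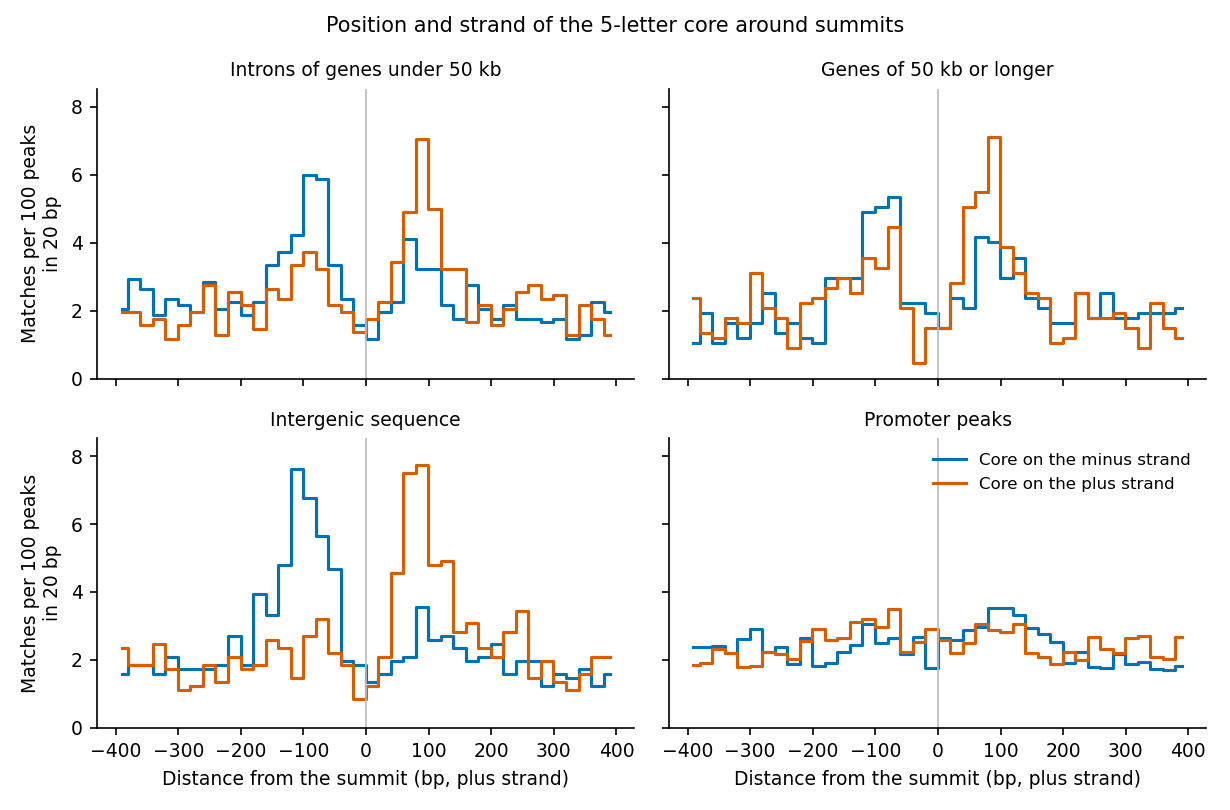
Matches to the 5-letter core per 100 peaks in 20-bp intervals (vertical axis) by distance from the summit in bp (horizontal axis), for introns of genes under 50 kb, genes of 50 kb or longer, intergenic sequence and promoter peaks of the thresholded list. At distal summits the core is most frequent on the minus strand to the left and on the plus strand to the right, and the promoter panel shows no such separation.

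The letters next to the outward core differed from those next to the same core further out. Among the 410 outward matches in the flanks, the base before CAGTG was T in 40% and the base after it was T in 43.2% and C in 36.3%. Among 361 outward matches at 240 to 400 bp the same shares were 24.7%, 20.8% and 26.6%. The second base after the core was A in 56.6%, against 32.1% further out, and the third base before it was T in 56.1%, against 30.2%. The initiator, the core promoter element that marks where transcription begins at many fly genes, starts with TCAGT. At annotated protein-coding start sites, CAGTG on the gene's strand was centred 1 to 6 bp after the start site at 3.45 matches per base and 1000 start sites, against 1.37 at 50 to 200 bp after it and 0.981 at 50 to 200 bp before it. Of those 399 matches, the base before was T in 48.6% and the base after was T in 40.9% and C in 33.1%, but the second base after was A in 21.6% and the third before was T in 26.1%. The flank core thus resembled the start-site core at the adjoining bases and differed from it further out. Transcription at the members was not measured here. The initiator motif of the list, TCAGTT, was present at 155 members with a ratio of 1.09 ± 0.0177 (SD, n = 3).

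The members were spread over 566 host genes, 14.7% of the 3838 genes that have eligible intron (replicates 14.3% ± 0.654, SD, n = 3). Of these, 318 held 1 member, 129 held 2 and 119 held more. The most, 9, lay in eIF5B, a translation initiation factor gene, at ranks 755 to 5336, with 8 in each replicate. Raf held 8 at ranks 170 to 6621, all 8 found in every replicate. mew, which encodes an integrin subunit, held 8 at ranks 1291 to 7973, with 8, 5 and 8 in the replicates.

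tara held 7, with 9, 10 and 8 in the replicates. The next 4 genes held 6 each. They were apt, a transcription factor gene, with 6 in every replicate, Zdhhc8, a palmitoyltransferase gene, with 6, 7 and 7, tou, a chromatin remodelling gene, with 4, 6 and 9, and gukh, the gene of a binding partner of the scaffold Dlg, with 6, 5 and 6. Per length of eligible intron, tou had 6 members in 15.7 kb and eIF5B 9 in 27.7 kb.

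Host genes carried a promoter peak more often than other genes with eligible intron. Of the 566 hosts, 344 (60.8%) had a thresholded summit within 500 bp of one of their start sites, against 1441 of the 3272 others (44%). In the replicates the shares were 62.9%, 63% and 60.9% of hosts, against 45.7%, 44.9% and 41% of others, and did not overlap. The difference was 18.4 ± 1.37 percentage points (SD, n = 3; exact sign-flip permutation test, p = 0.25). Genes with the most eligible intron, over 6.1 kb each, showed it too, with 252 of 415 hosts (60.7%), against 188 of 545 others (34.5%). With promoter summits counted only within 250 bp, the difference in the thresholded list was 7.4 points in place of 16.7. Any start site of a gene could count, and the part of the number of start sites per gene was not tested. The 666 members in hosts with a promoter peak had a median rank of 4748, and the 353 in other hosts one of 5114. tara and tou, with 7 and 6 members, had no promoter peak.

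Gene lists drawn up by function differed widely in how densely their introns were occupied. They were written with earlier results of these data known, so their densities are not independent of those results. They are described by counts beside all eligible genes (566 of 3838, 14.7%, and 55.9 per Mb). A list's genes share no test here, and a list of few eligible genes rests on single genes. The Polycomb and trithorax group keeps developmental genes off or on. Of its 29 eligible genes listed, 8 hosted 27 members, or 214 per Mb (replicates 220 ± 4.59). In front were simj, tara and trx, with 5, 7 and 5 members. Of CoRest and its partners, 3 of 9 hosted 8 members, or 223 per Mb (replicates 195 ± 27.9). These were the repressor gene chn with 4, ttk with 3 and the corepressor gene CtBP with 1, so the introns of the 2 zinc finger genes that act with CoRest themselves held members.

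Among transcription factors, basic helix-loop-helix genes had 7 hosts of 10, with 14 members or 206 per Mb (replicates 167 ± 8.49), led by crp, sim and Myc. Zinc finger repressor genes had 4 hosts of 8 and 89.2 per Mb, with ken, a repressor gene of the JAK/STAT pathway, at rank 378. The lists overlap, since chn and ttk, with 4 and 3 of these 10 members, are also among the CoRest partners. ken is also in the JAK/STAT and Hippo list. Homeobox genes had 12 hosts of 36 but 46.3 per Mb (replicates 39.8 ± 9.85), below all eligible genes, with Abd-B, inv and Awh in front. GATA factor genes had 1 host of 5, grn, at 72 per Mb.

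Signalling genes were mostly above the average. In the epidermal growth factor receptor and ETS list, 6 of 13 genes hosted 20 members, 166 per Mb (replicates 183 ± 8.3), 8 of them in Raf and 5 in aop, which encodes the ETS repressor of the pathway. JAK/STAT and Hippo genes had 6 hosts of 14 and 166 per Mb (replicates 174 ± 6.83), with ken, the kinase gene wts and ex. BMP genes had 4 of 13 and 127 per Mb (replicates 134 ± 5.65). They were led by Dad, the inhibitory Smad, at rank 391, cv-2, a BMP-binding protein, at 828, and the ligand dpp at 936. Wnt genes had 5 of 19 and 93.2 per Mb, led by the antagonist nkd at 637 and the co-receptor arr at 907, and Hedgehog genes 4 of 9 and 90.9, led by dlp at 765. Notch genes were lower, with 2 hosts of 13 and 29.7 per Mb, the receptor gene N at 528 and fng at 3638.

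Tissue genes divided. Muscle and mesoderm genes had 7 hosts of 17 and 119 per Mb (replicates 110 ± 13.6), 8 of the 22 members in mew, and adhesion and matrix genes 6 of 20 and 112, again with mew. Ecdysone genes had 5 hosts of 8 and 86.4 per Mb, led by Hr3. Regulators of trachea, blood and gut had 7 of 20 and 63.4 per Mb, led by Pvf1, and neuroblast and temporal genes 5 of 13 and 45.4, led by grh. Of 12 eligible cell cycle and replication genes only E2f1 was a host, with 6 members from rank 2200 on. The list has only 38.1 kb of eligible intron, so these 6 gave it 158 per Mb (replicates 158 ± 52.5, SD, n = 3).

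Synaptic and channel genes were the sparsest list with ample sequence. Their 23 eligible genes hold 220 kb of eligible intron and had 2 members, 1 in the potassium channel gene Shal at rank 7578 and 1 in the synapsin gene Syn at 7779. That is 9.08 per Mb, with 6.05 ± 5.24 per Mb in the replicates (SD, n = 3), against 55.9 and 55.3 ± 3.54 over all eligible genes. The median eligible intron of the list, 5.1 kb a gene, was larger than the 1.24 kb of all eligible genes. Chemosensory receptor genes had 0 hosts of 4 with only 3.31 kb, and none of 20 cytosolic ribosomal protein genes had eligible intron.

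**Figure D5:**
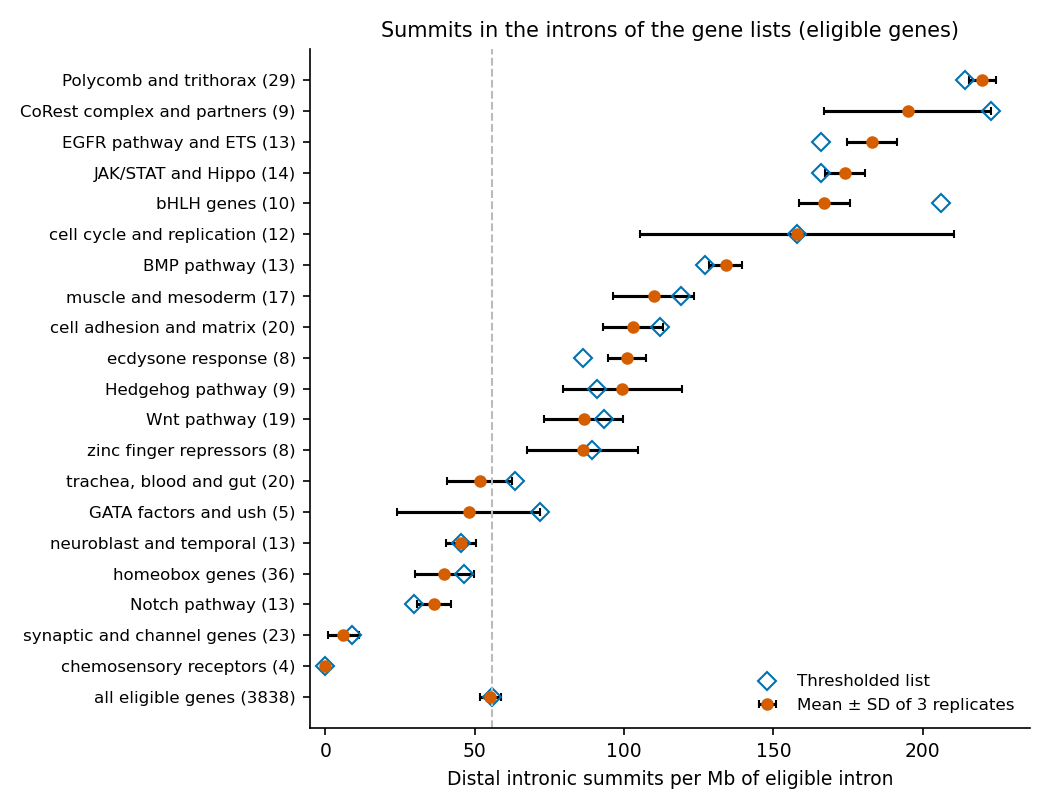
Distal intronic summits per Mb of eligible intron (horizontal axis) for the gene lists described, each with its number of eligible genes in brackets, and for all eligible genes at the bottom and as a dashed line. Filled points with error bars are means ± SD of 3 replicates and open diamonds the thresholded list; Polycomb and trithorax genes lie at 214 per Mb and synaptic and channel genes at 9.08 in the thresholded list.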

How the data were processed

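The deposited peak lists (1 per replicate, 1 pooled, 1 thresholded on reproducibility) are the authors' on dm6, per the deposited file listings, each called against the same control file; no source used here gives the caller, the aligner, the reproducibility threshold or the number of reads. The deposited signal, which no source used here defines, served only to rank peaks within a list. All 8721 thresholded peaks were the strongest 8721 of the pooled list, so the same number was taken from each replicate. The members and lists were chosen with earlier results of these data known, gene lists in part from an earlier session. Ensembl release 115 gave 13945 protein-coding genes and 23998 start sites, and the RefSeq Release 6 assembly gave the sequence. Coordinates are 1-based. A gene list and a sequence are not reported here. Of 533 listed symbols, 12 matched through synonyms and 2 did not match. Named were the 12 strongest members found in all 3 replicates, the 8 genes with the most members, up to 3 hosts a list, the 2 weakest members and those nearest each limit. Motifs and 6-mers were searched on both strands, 100 bp each side of the summit. GC weighting used classes of 2 percentage points. Tests were exact sign-flip permutations over replicates. Only the density ratio to longer genes, an unweighted motif share and the sign-flip p were checked on simulated data. Nothing says whether the replicates came from separate cages or days, so their spread may be partly technical. Python 3.11.15, numpy 2.4.6, pandas 2.3.3 and matplotlib 3.10.9 were used.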

Additional observations from a re-analysis of the deposited data

How the results depend on the processing

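Of 125 recomputed values for 11 results, 104 kept their direction or stayed near the reported value, 21 moved and none turned round. The 92 values of the 8 differences with a test all kept their sign, with p of 0.25 or more by the exact permutation test under each. The share of peaks that were members depends on its limits. It was 17.1% with distal from 1 kb, 8.89% from 3 kb, 7.14% with a length limit of 30 kb, 17% with 100 kb, 10.3% in the strongest 4360 peaks, 13.7% in 2 times as many pooled peaks, and 10.9 to 11.7% with 1 replicate left out. The share of eligible genes that host a member was 12.8% from 1 kb, 17.8% from 3 kb, 11.2% at 30 kb, 17.1% at 100 kb, 8.1% in the strongest 4360, 23.4% in 2 times as many peaks and 11.1 to 12% with 1 replicate left out. The number of motifs called was 2 in place of 1 from 3 kb, at 100 kb, in 2 times as many peaks and in windows of 50 bp, and 1 to 2 with 1 replicate left out. The cause of these 2-motif counts was not tested. With 1 replicate left out, the density differences were 17.7 to 19 per Mb against longer genes and 19.6 to 22.2 against intergenic sequence, from fewer peaks, and the rank difference was 568 to 746. The rank difference was 312 among the strongest 4360 peaks and 3322 among 2 times as many, where the ranks themselves span less and more. Outside soft-masked sequence, added after the data were seen, the density differences were 24 and 23.7 per Mb. No paired analysis was possible because all samples belong to 1 group. With no read depth, a missing peak does not show missing binding.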
